A study of Mus musculus with 8 samples.

Results

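The genes described here make, lengthen and desaturate fatty acids. They are 10 listed genes among the 32285 genes of the deposited matrices, and all 10 were found by symbol. Acly, Acaca and Fasn build saturated fatty acids, Elovl5, Elovl6 and Elovl7 elongate fatty acids (Elovl5 polyunsaturated ones), Scd1, Scd2 and Fads2 introduce double bonds, and Srebf1 encodes a transcription factor of the pathway. The rule is a list of names, which was drawn up with earlier results of these data known.

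ATP-citrate lyase (Acly) turns exported mitochondrial citrate into cytosolic acetyl-CoA, acetyl-CoA carboxylase (Acaca) makes malonyl-CoA from it, and fatty acid synthase (Fasn) condenses both into palmitate. Elongases add carbon pairs to the acyl-CoA, stearoyl-CoA desaturases (Scd1, Scd2) place the first double bond of monounsaturated fatty acids, and Fads2 starts the desaturation of polyunsaturated ones. SREBP-1, the product of Srebf1, and the liver X receptors (LXR) switch these genes on in many tissues, polyunsaturated fatty acids lower SREBP-1 activity, and dividing T cells are known to use the pathway for new membranes.

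Transcripts and guides were read in single CD90.1+ OT-I T cells by CROP-seq, which recovers the guide RNA of each cell beside its transcriptome. OT-I T cells are CD8+ T cells with 1 transgenic receptor for ovalbumin. The donor cells came from Cas9 knock-in mice, had been transduced with a lentiviral library of guides to metabolic genes, and were sorted 7 days after transfer from orthotopic KPC_OVA tumours, a mouse pancreatic adenocarcinoma line that expresses ovalbumin, so that Cas9, the receptor and the library were shared by treated and control animals. The recipients received anti-PD-1 (3 libraries) or IgG (1 library), with treatment starting on the day of transfer. The study gives the animals' age as a range of weeks in young adulthood and the mice per treatment, but not, in the sources used here, how the mice were divided over the libraries, so p-values measure the spread between libraries, which may be technical.

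Cells with exactly 1 called guide were used, 23059 after filtering, with 2535, 2597, 6432 and 11495 in anti-PD-1 replicates 1 to 3 and in IgG. Median depth fell in that order from 16829 to 6329 UMIs per cell, and 3 to 18 cell barcodes were shared by any pair of libraries. The 7 T cell markers summed to 6253 to 6837 CPM, a UMI count scaled to the total UMIs of the same cells, over the 4 libraries. The markers of tumour epithelium summed to at most 24.0 CPM, those of macrophages to at most 14.4 CPM and those of B or plasma cells to 55.6 to 196 CPM. Adipocytes are rich in the genes of this pathway, and their 4 markers summed to at most 0.0623 CPM, with all 4 at 0 in IgG. Cells with at least 10 UMIs of the markers of another cell type numbered 118 (0.512% of cells and 0.947% of UMIs) and held 0.9748% to 4% of the UMIs of the members.

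Among the targets of the library were 3 enzymes of the same pathway: Elovl1, which elongates saturated very-long-chain fatty acids, Fads1, the desaturase that acts after Fads2, and Acsl5, an acyl-CoA synthetase that activates long-chain fatty acids. Their guides are shown because the largest fitted changes of Scd1 and Scd2 were in cells with guides to 1 of them. The sequences are given 5′ to 3′ as deposited, without the adjacent NGG motif, and positions are in GRCm38 with GENCODE M21 exons.
Elovl1 guide 1: ggctattggaaaagtctatg
Elovl1 guide 2: gggcagacaatccatagtag
Elovl1 guide 3: tccaaagctaccctctgatg
Fads1 guide 1: gaggcccattcgctctactg
Fads1 guide 2: gggggtgcatgttgatatcg
Fads1 guide 3: gtggcattccacatcaacaa
Acsl5 guide 1: ctctgctcgatcagacacct
Acsl5 guide 2: tagaccctgttaaggagtcg
Acsl5 guide 3: cgtcatcaaaagggtccatg
The Elovl1 guides match coding sequence at chr4:118431110-118431129 (minus strand, exon 4), chr4:118431655-118431674 (minus strand, exon 7) and chr4:118430724-118430743 (plus strand, exon 3). The Fads1 guides match coding sequence at chr19:10185722-10185741 (minus strand, exon 3), chr19:10186829-10186848 (minus strand, exon 5) and chr19:10184936-10184955 (plus strand, exon 2). Acsl5 guide 2 matches at chr19:55284511-55284530 (minus strand, exon 12) and guide 3 at chr19:55280541-55280560 (minus strand, exon 7), both in coding sequence, and guide 1 was not placed here. The desaturase genes Scd2 (chr19:44293674-44306864), Scd1 (chr19:44394455-44407879) and Fads2 (chr19:10062765-10101746) lie on the same chromosome as Fads1 and Acsl5.

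The stearoyl-CoA desaturases were higher in cells with Acsl5 guides (sgAcsl5) than in cells with nontargeting guides (sgNT). Scd2 was at 112.5, 98.1 and 74.9 CPM in the sgAcsl5 cells of anti-PD-1 replicates 1, 2 and 3 and at 127.0 CPM in those of IgG, from 54, 42, 52 and 158 UMIs in 29, 23, 52 and 168 cells. In sgNT cells of the same libraries it was at 37.9, 36.3, 42.0 and 51.4 CPM. The lowest sgAcsl5 library thus lay above the highest sgNT library, and anti-PD-1 replicate 3 showed the smallest rise. The log2 fold change was 1.31 ± 0.18 (SE, edgeR's quasi-likelihood test, adjusted p = 1.10e-07). Scd1 was found in few UMIs, with 5, 2, 1 and 8 in the sgAcsl5 cells of anti-PD-1 replicates 1, 2 and 3 and of IgG, against 0, 0, 8 and 5 in the far more numerous sgNT cells. This gave 10.4, 4.67, 1.44 and 6.43 CPM against 0, 0, 0.771 and 0.549 CPM, so that the groups did not overlap, although the single UMI of replicate 3 allows 0.0365 to 8.03 CPM (exact Poisson 95% interval, counting error only). The log2 fold change of Scd1 was 3.39 ± 0.59 (adjusted p = 2.21e-04 in edgeR). The filter on low counts kept Scd1 in this fit over all targets, but not with only sgAcsl5 and sgNT cells. Which sums carried it past the filter was not examined, so its call may not be independent of its level in sgAcsl5 cells.

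Both calls are set beside the background of the same fit. This is a description and no test, because the list was drawn up with earlier results known and the filter used these counts. In sgAcsl5 cells, 4 of 9980 tested genes passed the threshold (0.0401%), and 2 of the 8 tested members were among them. The other 2 were Acsl5 itself, which fell by 0.84 ± 0.18 on the log2 scale (adjusted p = 0.00983), and Mylip, an LXR target that encodes a ubiquitin ligase, which rose by 1.78 ± 0.39 (adjusted p = 0.015). Acsl5 was at 28.8 to 41.7 CPM in the sgAcsl5 cells of the 4 libraries and at 56.4 to 62.2 CPM in sgNT cells. Mylip was at 4.17, 4.67, 17.3 and 15.3 CPM in the sgAcsl5 cells of anti-PD-1 replicates 1, 2 and 3 and of IgG, against 3.09, 0.842, 4.24 and 4.504 CPM in sgNT cells. It was higher within each library while the groups overlapped. In all, 35 UMIs in 27 of 272 sgAcsl5 cells gave these values, so those of replicates 1 and 2 rest on few UMIs. The Mylip call was not followed over the alternatives.

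The higher Scd2 was found with each of the 3 Acsl5 guides. Guides 1, 2 and 3 were in 105, 81 and 86 cells and gave 105.6, 105.5 and 111.6 CPM of Scd2. Relative to the UMIs expected from the sgNT cells of the same libraries, the ratios were 2.39, 2.32 and 2.53. Among the 266 guides with at least 20 cells these were the 3 highest ratios, and the next was 1.77 for a guide against B3gnt4. The 34 nontargeting guides ranged from 0.592 to 1.57. Scd1 had 8, 2 and 6 UMIs with the 3 Acsl5 guides. Acsl5 itself was at 46.3 CPM with guide 1, 25.2 CPM with guide 2 and 22.5 CPM with guide 3, so that the 3 guides gave like levels of Scd2 at unlike levels of Acsl5 transcript. Guides against 1 gene share their target and are no replicates of the condition.

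**Figure D1:**
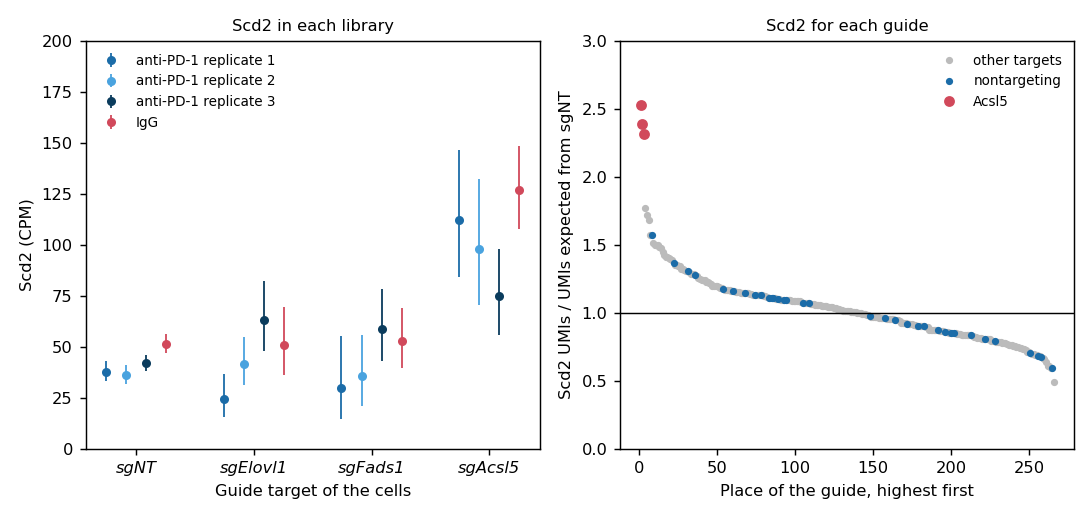
Left: Scd2 level (CPM) in cells with nontargeting (sgNT), Elovl1, Fads1 or Acsl5 guides, 1 point per library with its exact Poisson 95% interval (counting error only). Right: ratio of Scd2 UMIs to those expected from sgNT cells for each of 266 guides, ordered from the highest, where the 3 Acsl5 guides stand at 2.32 to 2.53 and the nontargeting guides at 0.592 to 1.57.

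The UMIs were spread over many cells. The 306 Scd2 UMIs of the sgAcsl5 cells came from 135 cells, and the cell with most held 4.58% of them. The 16 Scd1 UMIs came from 14 of 272 sgAcsl5 cells, against 13 UMIs in 13 of 2685 sgNT cells. Scd1 and Scd2 are closely related genes whose reads the counting could in part exchange, and Scd1 UMIs amounted to 5.23% of Scd2 UMIs in sgAcsl5 cells, 0.931% in sgNT cells, 2.37% in sgElovl1 cells and 0% (0 against 128) in sgFads1 cells, a difference that was not tested. Only 1 sgAcsl5 cell was among those with many UMIs of other cell types' markers, and without such cells the log2 fold changes were 1.28 for Scd2 and 3.19 for Scd1.

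Scd2 was higher in sgAcsl5 cells in each phase of the cell cycle. In G1 cells it was at 89.8 CPM (95% interval 74.1 to 107.9) against 38.5 in sgNT, in S cells at 85.5 CPM (62.8 to 113.7) against 47.6, and in G2M cells at 141.3 CPM (119.2 to 166.2) against 44.1. These are sums over the 4 libraries with intervals for counting error, and no test was run on them. From IgG came 168 of 272 sgAcsl5 cells and 1265 of 2685 sgNT cells, and Scd2 in sgNT was highest in IgG. The sums by phase and by class were not adjusted for this mix. The sgAcsl5 point also lay higher within each of the 7 marker classes described below and in cells of no class, from 64.2 against 25.0 CPM in the cytokine class to 162.1 against 47.9 CPM in the hypoxia class. In the exhausted class (13 cells, 65.9 CPM, 24.2 to 143.4) and the granzyme class (7 cells, 88.5 CPM, 28.7 to 206.4) the intervals held the sgNT values of 50.04 and 49.96 CPM. The mean share of cells per library in the exhausted class was 3.31% ± 2.47 (SD, n = 4) for sgAcsl5 and 10.8% ± 1.28 for sgNT. In the memory class it was 14.7% ± 5.96 and 7.44% ± 1.23, and in the granzyme class 1.37% ± 1.72 and 4.89% ± 0.971, and no test was run on these shares.

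Of the other 6 tested members in sgAcsl5 cells none passed the threshold, and the smallest adjusted p was 0.872, although the estimate was above 0 for all 6. Acaca was at 20.8, 18.7, 17.3 and 24.1 CPM in anti-PD-1 replicates 1 to 3 and in IgG, against 16.9, 11.1, 14.2 and 13.2 CPM in sgNT, a log2 fold change of 0.61 ± 0.21. Fasn was at 37.5, 25.7, 20.2 and 33.0 CPM against 24.9, 23.6, 17.4 and 20.7 CPM, a log2 fold change of 0.48 ± 0.21. Srebf1 was at 29.2, 23.4, 18.7 and 30.5 CPM against 17.2, 16.1, 20.8 and 21.1 CPM, a log2 fold change of 0.47 ± 0.19, with replicate 3 on the other side. The unadjusted p was 0.00441 for Acaca, 0.0222 for Fasn and 0.0148 for Srebf1. The log2 fold changes of Elovl5 (0.34 ± 0.22), Elovl6 (0.26 ± 0.38) and Acly (0.25 ± 0.15) had 95% intervals that held 0. The median over the 8 tested members was 0.48, beside -0.00 over all genes tested. Fads2 had 3, 0, 0 and 5 UMIs in sgAcsl5 cells against 6, 5, 15 and 7 in sgNT, and Elovl7 had 0 UMIs in all 272 sgAcsl5 cells, and both were below the filter on low counts.

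A list of 30 further genes of fatty acid synthesis, elongation, desaturation and activation is called the enzymes here. It also holds Slc25a1, Cyb5a and Mid1ip1, which are not enzymes of the pathway. Of these 30 genes 18 were tested in sgAcsl5 cells, of 17 regulators 14 and of 7 LXR genes and targets 5. Among all of these Acsl5, an enzyme of the list, and Mylip, an LXR target, passed and the others did not. The median log2 fold changes were 0.02 for the enzymes, 0.19 for the regulators and 0.14 for the LXR list.

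The calls in sgAcsl5 cells were lost under some alternatives. With guides of at least 5 UMIs only, which left 9, 7, 15 and 69 sgAcsl5 cells in anti-PD-1 replicates 1, 2, 3 and IgG and so, with sums of at least 10 cells, only the last 2 libraries for this target, Scd2 kept a log2 fold change of 1.15 ± 0.28 but had an adjusted p of 0.347, and Scd1 was below the filter. Scd2 stayed past the threshold in every other alternative, including each of the fits without 1 library. Scd1 did not pass with DESeq2 (log2 fold change 4.02 ± 4.32, adjusted p = 1) or without anti-PD-1 replicate 1 (2.89 ± 0.74, adjusted p = 0.178). It was below the filter without IgG and with only the target and nontargeting cells in the fit.

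Over all 74 targets with sums in at least 3 libraries, 592 pairs of a target and a member were tested, and 2 passed (0.338%, beside 0.0592% of all 738520 pairs of a target and a gene). Both were the desaturases in sgAcsl5 cells. The list was drawn up with earlier results of these data known, and the filter on low counts used the same counts. The 2 shares are therefore a description and no test. An unadjusted p below 0.05 was reached by 27 of the 592 pairs. Over the targets, the log2 fold change of Scd2 ran from -0.54 to 1.31, that of Fasn from -1.24 to 0.53 and that of Acly from -0.37 to 0.26. None of the targets other than Acsl5 had a called member in this fit.

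Cells with Elovl1 guides (292 cells) showed no called member. Of 9980 genes 3 passed (0.0301%), and 0 of the 8 tested members were among them by edgeR, nor by DESeq2. The lowest estimate was that of Fasn, which was at 12.8, 13.1, 15.8 and 18.3 CPM in anti-PD-1 replicates 1 to 3 and in IgG against 24.9, 23.6, 17.4 and 20.7 CPM in sgNT. It lay below sgNT within each of the 4 libraries, with a log2 fold change of -0.55 ± 0.22, an unadjusted p of 0.0139 and an adjusted p of 1 in edgeR, and was at 13.9, 20.1 and 9.21 CPM with the 3 guides. Scd2 was at 24.5, 41.8, 63.3 and 51.0 CPM, and its log2 fold change of 0.09 had a 95% interval from -0.30 to 0.48. The highest estimate was that of Scd1 (1.19 ± 0.83), from 4 UMIs. The Elovl1 transcript itself was at 28.8 to 49.7 CPM against 40.3 to 48.0 CPM in sgNT (log2 fold change -0.14 ± 0.15, adjusted p = 1 in edgeR), and these counts do not show in how many cells the gene was cut.

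Cells with Fads1 guides (241 cells) also showed no called member, with 1 of 9980 genes called (0.01%) and no member at an unadjusted p below 0.05 in edgeR or called by DESeq2. Scd2 was at 30.03, 35.5, 58.8 and 52.9 CPM, and its log2 fold change of 0.13 had a 95% interval from -0.30 to 0.55. Scd1 had 0 UMIs in all 4 libraries, which allows up to 3.61 CPM in IgG and 11.1 CPM in anti-PD-1 replicate 1 by the exact Poisson interval. Fads1 itself was at 0, 1.97, 1.28 and 0.98 CPM, from 0, 1, 1 and 1 UMIs, against 3.74, 3.37, 2.50 and 5.05 CPM in sgNT, lower in each library, with a log2 fold change of -1.55 ± 0.75 and an adjusted p of 1 in edgeR. The Scd2 changes of sgAcsl5 and of the other 2 targets share the sgNT cells, and the difference between the targets was not tested.

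**Figure D2:**
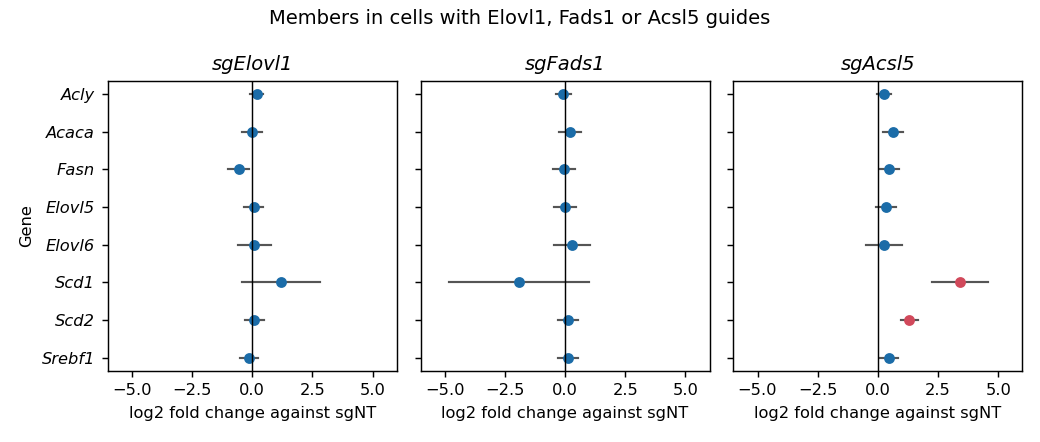
Log2 fold change against sgNT (points) with its 95% interval (lines) for the 8 tested members in cells with Elovl1, Fads1 or Acsl5 guides, from the edgeR fit over all targets with the library as a block. Points in red passed an adjusted p of 0.05 over all genes, which were Scd1 (3.39) and Scd2 (1.31) with Acsl5 guides.

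The cell cycle was the next axis. Phases were called per cell from lists of S and G2M genes that hold no member, which put 51.2% to 57.1% of the cells of a library in G1, 16.5% to 21.9% in S and 22.3% to 32.4% in G2M. Between S and G1 cells 57.5% of 11791 tested genes passed the threshold and 28.4% were higher in S. Of the 9 tested members, 6 were higher in S and 0 lower, with a median log2 fold change of 0.33 beside -0.02 over all genes. Between G2M and G1 cells 57% passed and 27.4% were higher, and 3 of the 9 tested members were higher and 0 lower, with a median of 0.13 beside -0.03. Elovl7 was below the filter in both, and Fads2 entered through the S and G2M cells in which it was higher. Median depth was 5335 to 13480 UMIs in G1 cells of the 4 libraries and 7911.5 to 20322 UMIs in S cells, and when phases were called after thinning each cell to 2000 UMIs, 8 of the 9 member calls in S and G2M passed again. Markers of B or plasma cells summed to 62.8 to 78.8 CPM in G1 and 48.2 to 515.8 CPM in G2M, those of macrophages to 12.1 to 18.9 CPM in G1 and 6.83 to 9.295 CPM in S, those of endothelial cells to 8.196 to 11.5 CPM in G1 and 5.28 to 7.235 CPM in S, those of tumour epithelium to at most 39.8 CPM in G1 and 20.1 CPM in S, and those of fibroblasts to at most 36.4 CPM in G1 and 0.715 CPM in S and G2M. Their part in the phase values was not tested.

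Fads2 showed the largest difference between phases. It was at 0.203, 0.305, 0.295 and 0.441 CPM in the G1 cells of anti-PD-1 replicates 1, 2 and 3 and of IgG, from 4, 6, 12 and 15 UMIs. In S cells it was at 1.05, 1.42, 1.81 and 1.82 CPM, from 13, 15, 40 and 29 UMIs, and in G2M cells at 1.19, 0.778, 1.83 and 1.09 CPM. Every library lay higher in S and in G2M than any library in G1. The log2 fold change was 2.29 ± 0.28 in S (adjusted p = 4.31e-06) and 1.97 ± 0.27 in G2M (adjusted p = 1.54e-05). In G1 its levels were like those of Elovl7 (0.176 to 0.458 CPM), which was below the filter on low counts. Fads2 thus entered the fit through its S and G2M cells, so these tests are not independent of the rise. Fads1, which follows Fads2 in the same route, was likewise higher, at 6.73 to 7.49 CPM in S and 3.445 to 5.305 CPM in G2M against 2.11 to 3.20 CPM in G1.

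Of the enzymes of palmitate synthesis, Fasn and Acaca were higher in S and Acly was not called. Fasn was at 22.1, 21.5, 14.8 and 18.4 CPM in G1 and at 28.4, 23.5, 24.8 and 26.9 CPM in S, higher in each library (log2 fold change 0.48 ± 0.07, adjusted p = 4.40e-05). Acaca was at 15.4, 11.5, 11.5 and 12.8 CPM in G1 and at 17.5, 16.0, 16.1 and 17.7 CPM in S (0.42 ± 0.06, adjusted p = 3.25e-05). In neither gene did the S and G1 groups overlap. In G2M the log2 fold changes were 0.10 ± 0.07 for Fasn and 0.13 ± 0.06 for Acaca, and neither passed. Acly, the enzyme before both, was at 43.0 to 50.6 CPM in G1 and 44.3 to 53.3 CPM in S and did not pass (0.07 ± 0.04), nor did Srebf1 (0.10 ± 0.06 in S and 0.11 ± 0.05 in G2M).

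Elovl5 was at 16.6, 15.1, 15.1 and 14.4 CPM in G1, at 21.9, 20.5, 20.4 and 14.4 CPM in S and at 20.1, 19.1, 17.4 and 17.1 CPM in G2M. The rise in S (0.33 ± 0.07, adjusted p = 0.00114) was present in the anti-PD-1 libraries and not in IgG (a difference that was not tested), while the rise in G2M (0.28 ± 0.07) was present in all 4. Elovl6 was higher in S in each library (0.31 ± 0.08, adjusted p = 0.00307) and not called in G2M (0.04 ± 0.07). Scd2 was at 39.8, 33.9, 40.1 and 44.0 CPM in G1, at 40.9, 40.2, 49.3 and 52.0 CPM in S and at 34.6, 40.8, 54.0 and 56.3 CPM in G2M (0.22 ± 0.07 and 0.26 ± 0.07, adjusted p = 0.0131 and 0.00355). In anti-PD-1 replicate 1 the Scd2 level in G2M was below that in G1. Scd1 had 8 to 11 UMIs per library in G1, 2 to 16 in S and 1 to 28 in G2M and was not called (0.77 ± 0.50 and 0.70 ± 0.45), but passed in S (1.15, adjusted p = 0.0391) and in G2M (1.13, adjusted p = 0.0267) without anti-PD-1 replicate 1.

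The Scd2 call in S was lost without anti-PD-1 replicate 2 (0.22, adjusted p = 0.059), without replicate 3 (0.19, adjusted p = 0.0533) and without IgG (0.21, adjusted p = 0.0615), and that in G2M without IgG (0.21, adjusted p = 0.0508). The Elovl6 call in S was lost when phases were called after thinning each cell to 2000 UMIs (0.18 ± 0.08, adjusted p = 0.0592). In nontargeting cells alone the S values were 0.23 for Acaca (adjusted p = 0.348), 0.17 for Elovl6 (adjusted p = 0.628), 0.48 for Fasn (adjusted p = 0.064) and 0.31 for Scd2 (adjusted p = 0.0544), none of them past the threshold.

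**Figure D3:**
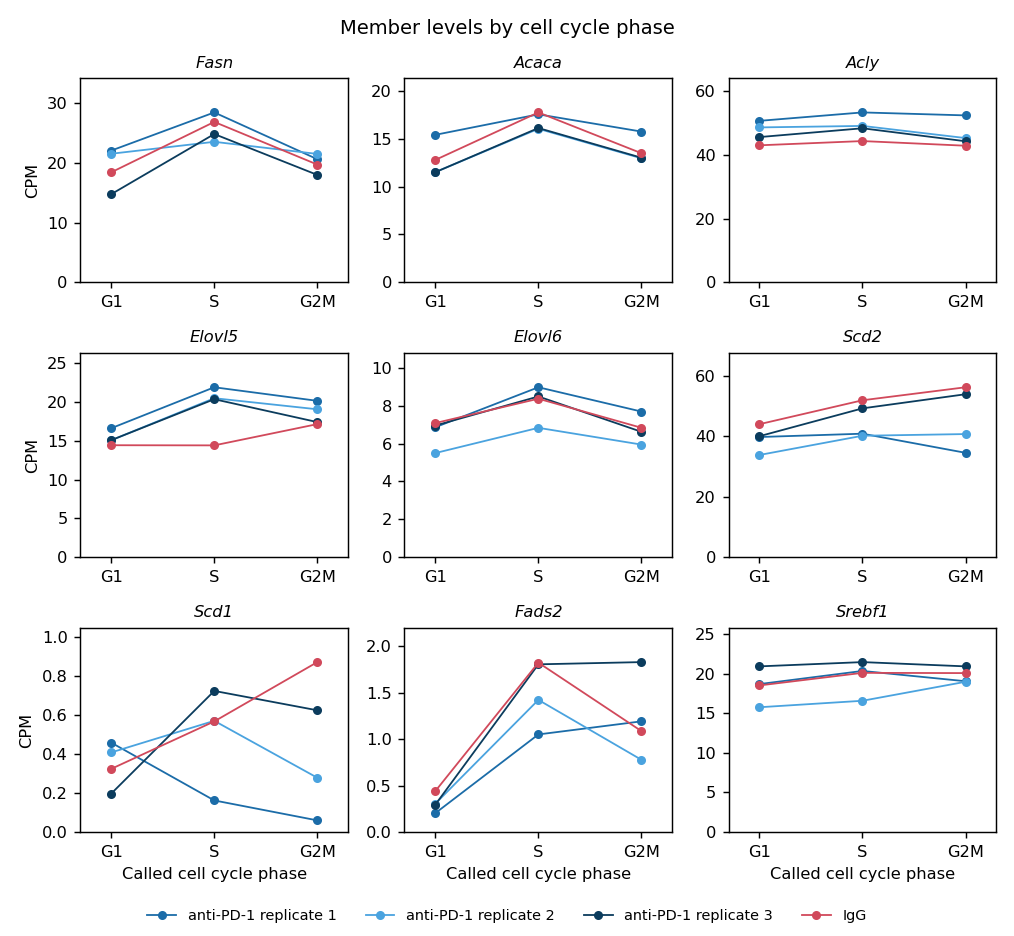
Level (CPM, each panel with its own axis from 0) of 9 members in G1, S and G2M cells, with a line for each of the 4 libraries. Fads2 rises from 0.203 to 0.441 CPM in G1 to 1.05 to 1.82 CPM in S in all 4 libraries, and Acly stays between 42.8 and 53.3 CPM.

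Other genes of the enzyme list were counted beside the members. Of 19 tested enzymes, 7 were higher and 4 lower in S, and 4 were higher and 6 lower in G2M, beside 29.1% of all genes lower in S and 29.6% lower in G2M and the shares higher given above. Those with the largest changes in S were Fads1 (1.41 ± 0.13), the acyl-CoA synthetase Acsl1 (0.99 ± 0.14), the dehydratase Hacd1 (0.97 ± 0.22), Mid1ip1, which activates acetyl-CoA carboxylase (0.83 ± 0.07), and the acetyl-CoA synthetase Acss2, which was lower (-0.56 ± 0.15). Of 14 tested regulators, 4 were higher and 5 lower in S. Of 5 tested LXR genes and targets, 4 were lower in S and 4 in G2M, and none higher in either. Mylip (-0.97 ± 0.14), Smpdl3a (-0.53 ± 0.07), Abcg1 (-0.52 ± 0.10) and Nr1h2, the gene of LXR beta (-0.22 ± 0.04), were the 4 lower in S.

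T cell states were set by marker lists that hold no member. A cell took the class of its highest standardised list score if that score reached 1, which left 41% of cells in no class, and 8.52% of cells lay within 0.1 of this limit. Of the cells in a class, 35.0% had a second list at the limit too, so that a class is a range of scores and not a cell type. Each class was compared with the mean of all others within library. Elovl7, Scd1 and Fads2 were below the filter, and 7 members were tested.

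The cytokine class (Ifng, Tnf, Ccl3 and like genes, 2417 cells) had 5 called members of 7, beside 52.4% of 10622 genes (26% higher and 26.4% lower), with Fasn and Acaca higher and Elovl5, Elovl6 and Scd2 lower. Fasn was at 31.8, 33.5, 23.9 and 26.4 CPM in the class in anti-PD-1 replicates 1 to 3 and in IgG, against means of 21.1, 19.2, 15.8 and 19.0 CPM over the other classes and the cells of no class (log2 fold change 0.71 ± 0.08, adjusted p = 5.91e-09). It was higher than the mean of the others in 4 of 4 libraries and the highest of all classes in 3. Scd2 was at 22.6, 26.2, 28.5 and 30.7 CPM against 38.0, 39.2, 46.7 and 52.2 CPM (-0.62 ± 0.07, adjusted p = 3.09e-09), and the class was the lowest in all 4 libraries. Elovl6 (-0.55 ± 0.13) and Elovl5 (-0.24 ± 0.08) were lower in each library, and Acaca (0.24 ± 0.09, adjusted p = 0.022) higher in each. Acly (0.01 ± 0.05) and Srebf1 (-0.10 ± 0.08) were not called.

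These calls were compared with fits that left out cells or libraries. In G1 cells alone the log2 fold changes in the cytokine class were 0.91 ± 0.11 for Fasn, -0.70 ± 0.10 for Scd2, -0.59 ± 0.19 for Elovl6 and 0.40 ± 0.12 for Acaca, all still past the threshold, while Elovl5 (-0.23 ± 0.11, adjusted p = 0.0848) was not. Markers of B or plasma cells summed to 40.9 to 48.6 CPM in the class and to 64.1 to 115.7 CPM in the precursor, memory, exhausted and interferon classes, and their part in these values was not tested. The call of Elovl5 was lost without anti-PD-1 replicate 2 (-0.20, adjusted p = 0.0802), and that of Acaca without replicate 3 (0.27, adjusted p = 0.0629) and without IgG (0.20, adjusted p = 0.151). In sgNT cells alone Elovl5 (0.16 ± 0.23) and Elovl6 (0.33 ± 0.30) had the opposite sign and were not called.

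**Figure D4:**
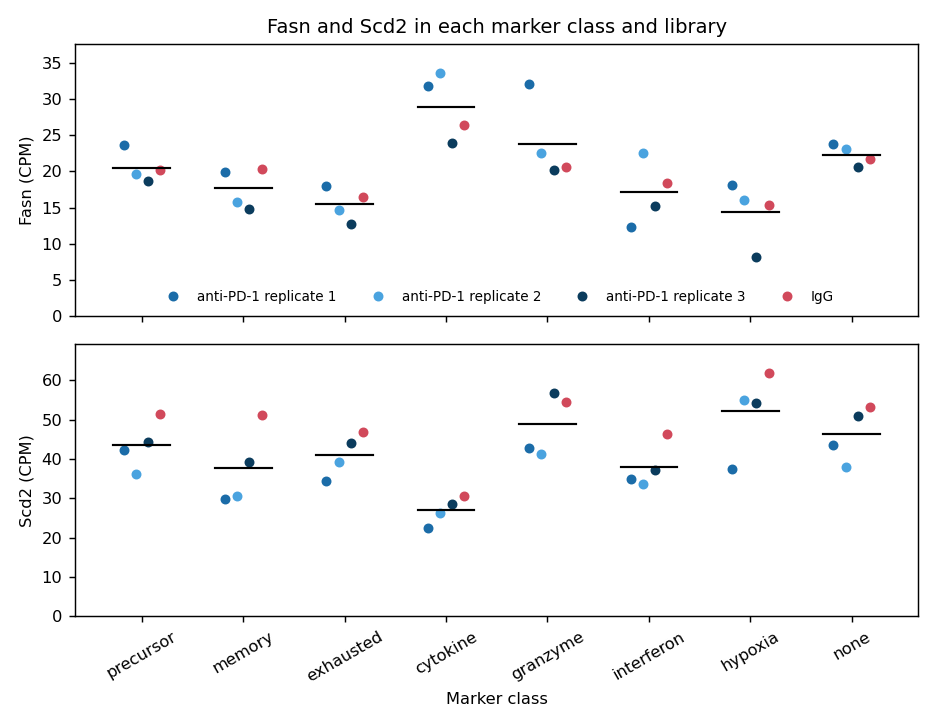
Fasn (top) and Scd2 (bottom) levels (CPM, axes from 0) in each marker class and in cells of no class, 1 point per library with the mean as a line. In the cytokine class Fasn is at 23.9 to 33.5 CPM, the highest mean, and Scd2 at 22.6 to 30.7 CPM, the lowest mean.

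The hypoxia class (Bnip3, Slc2a1, Vegfa and like genes, 2335 cells) had 4 called members of 7, beside 29.6% of genes, and here Scd2 was higher and Fasn lower. Scd2 was at 37.5, 55.0, 54.3 and 61.8 CPM against 35.8, 35.1, 43.0 and 47.7 CPM (0.39 ± 0.06, adjusted p = 4.71e-06), with the smallest gap in anti-PD-1 replicate 1. Srebf1 was at 23.9, 20, 26.6 and 22.8 CPM against 19.3, 16.5, 20.4 and 18.7 CPM (0.34 ± 0.08, adjusted p = 9.31e-04), higher in each library. Fasn was at 18.1, 16.0, 8.19 and 15.3 CPM against 23.1, 21.7, 18.0 and 20.6 CPM (-0.54 ± 0.10, adjusted p = 6.36e-05), lower in each library. Elovl6 was lower (-0.49 ± 0.13, adjusted p = 0.00526), but its call was lost without anti-PD-1 replicate 3 (-0.42, adjusted p = 0.0919), without IgG (-0.41, adjusted p = 0.092) and in G1 cells alone (-0.45, adjusted p = 0.0828). The tumour epithelial markers summed to 10.4 to 120.5 CPM over the libraries of this class and to at most 20.7 CPM in every other class, and fibroblast markers to 0 to 141.2 CPM and at most 1.232 CPM. The fibroblast markers were at 15.1 CPM in anti-PD-1 replicate 2 as a whole and at most 0.307 CPM in the other libraries, and without replicate 2 the log2 fold change of Scd2 in the class was 0.35 ± 0.06 (adjusted p = 6.06e-05). The other 3 calls also held without replicate 2, and the part of the epithelial markers was not tested.

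The precursor class (Tcf7, Slamf6 and like genes, 2184 cells) had 2 called members of 7, beside 35.9% of genes. Endothelial markers summed to 12.8 to 20.2 CPM in this class and to at most 15.4 CPM in the others, and their part in these values was not tested. Elovl6 was at 7.29, 9.36, 11.2 and 9.91 CPM against 7.62, 5.46, 6.67 and 7.11 CPM, higher in 3 of 4 libraries and the highest class in those 3 (0.55 ± 0.12, adjusted p = 3.65e-04, and 0.62 ± 0.16 in G1 cells alone). Srebf1 was lower (-0.24 ± 0.09, adjusted p = 0.0304), and this call was lost without anti-PD-1 replicate 3 (-0.24, adjusted p = 0.0813) and without IgG (-0.22, adjusted p = 0.155) and in G1 cells alone (-0.25, adjusted p = 0.0921). In the memory class (Klf2, S1pr1, Gzma and like genes, 1938 cells), where 42.4% of genes passed, Acaca (-0.34 ± 0.11, adjusted p = 0.0116) and Scd2 (-0.18 ± 0.07, adjusted p = 0.0392) were lower. Neither held in G1 cells alone (adjusted p = 0.0804 and 0.542), where Elovl6 (0.57, adjusted p = 0.0294) and Fasn (-0.48, adjusted p = 0.0377) passed instead. Without anti-PD-1 replicate 2 neither passed (-0.21 and -0.13, adjusted p = 0.131 and 0.177), without IgG Acaca did not (-0.33, adjusted p = 0.0606), and without replicate 1 or 3 Scd2 did not (-0.14 and -0.16, adjusted p = 0.167 and 0.178).

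The exhausted class (Pdcd1, Havcr2, Lag3 and like genes, 2404 cells) had 3 called members of 7, beside 34.1% of genes. Fasn was at 18.0, 14.7, 12.8 and 16.4 CPM against 23.1, 21.9, 17.4 and 20.4 CPM, lower in each library (-0.46 ± 0.10, adjusted p = 5.87e-04, and -0.41 ± 0.14 in G1 cells alone). Elovl5 (0.19 ± 0.08, adjusted p = 0.0467) and Acaca (-0.26 ± 0.10, adjusted p = 0.0469) passed narrowly. The Acaca call was lost in each of the 4 fits without 1 library (-0.30 to -0.19, adjusted p = 0.0865 to 0.175) and in G1 cells alone (-0.28, adjusted p = 0.185), and Elovl5 did not without anti-PD-1 replicate 1, 2 or 3 (0.14 to 0.22, adjusted p = 0.0693 to 0.265).

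The granzyme class (Gzmc to Gzmg and Prf1, 937 cells) had 3 called members of 7, all higher, beside 18.4% of genes called and 10.7% higher and 7.71% lower. Scd2 was at 42.9, 41.4, 56.8 and 54.4 CPM against 35.0, 37.0, 42.7 and 48.8 CPM, higher in each library (0.35 ± 0.08, adjusted p = 0.00104), and did not pass without anti-PD-1 replicate 3 (0.24, adjusted p = 0.129). Fasn was at 32.0, 22.5, 20.2 and 20.6 CPM against 21.1, 20.8, 16.3 and 19.8 CPM (0.36 ± 0.12, adjusted p = 0.0247). The Fasn call was lost without replicate 1 (0.25, adjusted p = 0.226) and without replicate 3 (0.31, adjusted p = 0.136), and that of Acly (0.18 ± 0.06, adjusted p = 0.0379) without replicate 1, without replicate 3 and without IgG (0.06 to 0.17, adjusted p = 0.135 to 0.656). Neither passed in G1 cells alone (Fasn 0.22, adjusted p = 0.53, and Acly 0.17, adjusted p = 0.344). The interferon class (Ifit1, Isg15 and like genes, 1401 cells) had 0 called members by edgeR and by DESeq2, beside 10.9% of genes (6.09% higher and 4.85% lower), with 1 member, Srebf1 (0.21 ± 0.10), at an unadjusted p below 0.05.

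**Figure D5:**
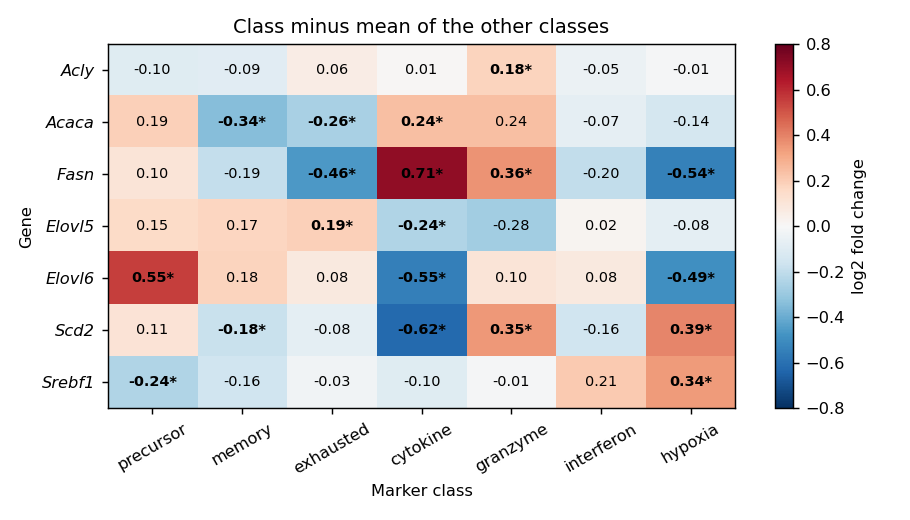
Log2 fold change of the 7 tested members (rows) in each marker class (columns) against the mean of the other classes, within library. Values with an asterisk passed an adjusted p of 0.05 over 10622 genes, and Fasn runs from -0.54 in the hypoxia class to 0.71 in the cytokine class while Scd2 runs from -0.62 in the cytokine class to 0.39 in the hypoxia class.

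Regulators and LXR targets were counted in the same fits. Over all genes, 20.1% were higher and 15.8% lower in the precursor class, 20.1% and 22.3% in the memory class, 14.6% and 19.5% in the exhausted class and 14.1% and 15.6% in the hypoxia class. In the cytokine class 1 of 14 tested regulators was higher and 7 lower, with Usf1 (-0.53 ± 0.09) among the lower, and 7 of 18 tested enzymes were higher and 3 lower. In the hypoxia class 5 regulators were higher and 0 lower, led by Insig2 (0.59 ± 0.07), whose product retains SREBP in the endoplasmic reticulum. In the granzyme class 4 regulators were higher and 1 lower, with Hmgcs1 (0.59 ± 0.10), an enzyme of sterol synthesis, among the higher. The LXR list was higher in 3 of 5 tested genes in the memory, exhausted and interferon classes and in 2 in the precursor class, and lower in 2, 2 and 3 in the cytokine, granzyme and hypoxia classes. Abcg1, a sterol exporter and LXR target, was the called gene of that list furthest from 0, at -1.36 ± 0.20 in the granzyme class.

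The members varied in unlike ways over the 32 sums of a library and a class. After centring each library, Pearson's r was 0.552 for Elovl5 and Elovl6, 0.478 for Fasn and Acaca, -0.374 for Scd2 and Fasn and -0.648 for Fasn and Srebf1. These sums share libraries, depth and the class definitions, so r is a description and no test. Among 8521 genes, those most like Scd2 were Ddit4 (0.819), Plin2, a lipid droplet coat protein (0.77), and Mrpl14 (0.765). Those most like Fasn were Exosc1 (0.885), Gpatch4 (0.884) and Bop1 (0.877), the first of the RNA exosome and the last of ribosome assembly. Elovl5 was most like Bad (0.83), Elovl6 like Dcaf8 (0.757), Acaca like Wdr77 (0.76), Acly like Zfp263 (0.733) and Srebf1 like Ppm1b (0.685).

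Treatment was compared last, over whole libraries, and the question was whether PD-1 blockade changes these genes. By edgeR 0 of 13810 genes passed (0%), 282 had an unadjusted p below 0.05, and 0 of the 10 members had one. Scd2 was at 38.3, 37.8 and 46.4 CPM in anti-PD-1 replicates 1, 2 and 3 and at 50.4 CPM in IgG (log2 fold change -0.29, 95% interval -0.60 to 0.02). Elovl5 was at 19.2, 17.7 and 17.1 CPM against 15.5 CPM (0.23, -0.05 to 0.51), and Acly at 51.9, 47.4 and 45.9 CPM against 43.2 CPM (0.18, -0.09 to 0.44). The largest estimates were those of 2 members with few UMIs, Scd1 (-0.65 ± 0.51, 0.246, 0.394 and 0.452 CPM against 0.585 CPM) and Elovl7 (0.35 ± 0.56). In these 5 genes all anti-PD-1 libraries lay on the same side of IgG. Fasn (0.05 ± 0.18), Acaca (0.02 ± 0.17) and Srebf1 (-0.01 ± 0.16) lay close to 0.

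The titles of anti-PD-1 replicates 1 and 2 share a stem in the labels and those of anti-PD-1 replicate 3 and IgG do not, and Scd2 of replicate 3 lay nearer to IgG. Without replicate 3, Elovl5 (0.27, adjusted p = 0.0383) and Scd2 (-0.38, adjusted p = 0.00157) passed together with 24.9% of all genes, but treatment and this stem then cannot be told apart. With 1 IgG library its spread was taken from the anti-PD-1 libraries, and no member passed in G1 cells alone. Nor did one pass with a term that set replicates 1 and 2 against replicate 3 and IgG, a grouping that the labels do not state, although 2.05% of all genes did. DESeq2 called 5 genes and no member.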

How the data were processed

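Gene and guide UMIs were measured with the Chromium 3' v3.1 kit. The authors made the deposited UMI counts per gene and cell with Cell Ranger 3.1.0 on mm10, and the counts were used here as deposited. Cells with 1 called guide, log10 UMIs within 3 median absolute deviations and at most 10% mitochondrial UMIs were kept, with no doublet caller beyond the single guide. Phases and marker classes were set per library with scanpy 1.11.5. Counts were summed per library and group and tested with edgeR 4.0.16 (quasi-likelihood, TMM, filterByExpr, Benjamini-Hochberg over all genes, threshold 0.05, R 4.3.3), with the library as a block for phases, classes and targets, since the groups compared come from the same libraries. SE is the absolute log2 fold change over the square root of F. Sums needed 20 cells for classes and 10 for targets. The target fit used a common dispersion from 1000 genes in place of gene-wise trended dispersions, which could not be fitted in the time available. Alternatives included DESeq2 1.42.0. CPM scales the UMIs of a gene to all gene UMIs of the same cells, and its exact Poisson 95% intervals cover counting error only. On simulated counts the S against G1 test (11791 genes) recovered 66% of genes changed by 0.5 and 93% of those changed by 1 on the log2 scale, and the target test (sgElovl1, 1000 genes) 51% and 86%, with 10 of 733 unchanged genes called. The simulation changed 100 genes by each size, with a fixed dispersion and no difference between libraries beyond their totals. A far smaller share of genes was called in the real target fits, so 51% and 86% are no estimate of their power. The members and lists were chosen with earlier results of these data known. By rule, all 10 members, the 3 targets, at most 5 called genes of each pathway list with the largest changes and the 3 genes most like a member could be named. The result of 1 regulator is not reported here.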

Additional observations from a re-analysis of the deposited data

Results flagged for a closer look

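Elovl6 in the G1 cells of anti-PD-1 replicate 2 was at 5.5 CPM, below the 6.86 to 7.08 CPM of the other 3 libraries. It was the 1 flagged of 105 groups of 4 values examined for a value apart from the others. Chance alone gives about 1 in 20, so 1 flag is fewer than that rate gives.

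In 3 comparisons the IgG library was close to 0 and of the other sign, while all 3 anti-PD-1 libraries lay on 1 side, and the difference between treatments was not tested. Elovl5 in S against G1 had a log2 difference of -0.00 in IgG and of 0.40 to 0.44 in the anti-PD-1 libraries. Elovl5 in the exhausted class against the other cells had -0.04 in IgG and 0.21 to 0.45 in the anti-PD-1 libraries. Scd2 in the memory class had 0.05 in IgG and -0.33 to -0.20 in the anti-PD-1 libraries.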

How the results depend on the processing

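Over the alternatives, 214 values of called members kept their direction and call, 70 kept the direction and lost the call, and 2 reversed, which were Elovl5 (0.16) and Elovl6 (0.33) in the cytokine class with nontargeting cells only. DESeq2 kept 27 of 30 calls, no filter on low counts 26 of 30, G1 cells alone 11 of 19, and nontargeting cells alone, which leave far fewer cells, 7 of 26. With nontargeting cells only, the number of called members was 1 in S and 1 in G2M, beside 31.5% and 34.4% of all genes. It was 0 in the precursor, memory and granzyme classes, beside 10.6%, 13.5% and 2.43%. It was 1 in the exhausted and hypoxia classes (10.9% and 9.7%) and 3 in the cytokine class (25.3%). Without a filter on low counts 1 member was called in the exhausted class, beside 17.3% of genes. In sgAcsl5 cells 1 member was called with DESeq2 (0.0501% of genes) and 1 with only the target and nontargeting cells in the fit (0.0637%). With at least 5 guide UMIs 0 members were called there (0% of genes). Leaving out 1 library gave 5 to 7 called members in S (48.3% to 53.4% of all genes) and 2 to 4 in G2M (49.3% to 52.8%). In the classes it gave 1 to 2 in the precursor class (26.7% to 31.5%), 0 to 1 in the memory class (34.2% to 39.9%), 1 to 2 in the exhausted class (26.4% to 29.5%), 4 to 5 in the cytokine class (44.9% to 48%), 0 to 3 in the granzyme class (11.1% to 15.8%), 3 to 4 in the hypoxia class (19.4% to 24.1%) and 0 in the interferon class (6.34% to 8.29%). In sgAcsl5 cells it gave 1 to 2 (0.0106% to 0.032%), and 0 in sgElovl1 (0.02% to 0.0306%) and sgFads1 cells (0% to 0.0213%). The cause of these changes was not tested. Few UMIs limit Scd1, Fads2 and Elovl7. The count over all 74 targets was not run under alternatives.

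Without the library as a replicate block, G2M had 1 called member and S had 5, and sgAcsl5 cells kept 2. Over all genes 27%, 28.5% and 0.02% passed in these fits. The lost calls were Scd2 in S (0.22 ± 0.14, adjusted p = 0.285 in edgeR) and Elovl5 (0.29, adjusted p = 0.0865) and Scd2 (0.26, adjusted p = 0.218) in G2M. Replicate numbers do not pair anti-PD-1 with IgG libraries, so no paired analysis of treatment was possible because 1 IgG library shares its number only by accession order.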

Other observations

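Elovl7, which was below the filter on low counts in all fits but that of treatment, had its highest mean level in the memory class (0.936 CPM ± 0.545, SD, n = 4 libraries) and 0.114 to 0.441 CPM in the other classes and the cells of no class. Fads2 had its highest mean in the precursor class (1.32 CPM ± 0.809) and its lowest in the cytokine class (0.399 CPM ± 0.163). In the precursor class it lay above the mean of the others in only 2 of the 4 libraries. Elovl5 passed the threshold in the granzyme class when only G1 cells were used (log2 fold change -0.66, adjusted p = 0.0099 in edgeR) and in the precursor class likewise (0.38, adjusted p = 0.00461). With cells of all phases and libraries neither passed at the class limit used, and in the granzyme class it passed without IgG (-0.48, adjusted p = 0.00509) and at a class limit of 0.5 (-0.26, adjusted p = 0.0314).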
